A study of Arabidopsis thaliana with 6 samples.

Results

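A set of 65 Affymetrix probe sets, out of 22746 tested, stood high on 2 of the 3 arrays of a TOC1 overexpressor of Arabidopsis thaliana. On the third they lay near or below the highest wild-type value. The deposited log2 values chose them. TOC1-ox replicates 1 and 2 each had to lie at least 2 log2 units (4-fold) above the highest WT value, and TOC1-ox replicate 3 at most 0.5 above it. One further probe set met these limits, that of XTH26, and was left out with the UGT, XTH, TBL and EXP symbols. The platform annotation lists a single gene for 33 of the 65 and none for the other 32.

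The study compared TOC1-ox seedlings, with 3 arrays, with wild-type (WT) seedlings, also with 3 arrays, described by the series as biological replicates. All were of ecotype Col0 and 12 days old, had grown on MS3 medium with 12 h of light and 12 h of darkness a day, and were harvested at zeitgeber time 15, in the dark. The promoter that drives TOC1 in the overexpressor, and whether the line is a single transgenic event, are not stated in the labels. TOC1 has no probe set of its own in the platform annotation, which lists no gene for 8730 of the tested probe sets. Its level is not analysed here under a name, and whether it was raised on all 3 TOC1-ox arrays was not tested.

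TOC1 is a DNA-binding component of the plant circadian clock that is expressed in the evening and represses morning genes. Plant clocks are known to gate many hormone, nutrient and light-signalling genes to times of day. Of the 33 named genes, 25 are described below by role, from specialised metabolism to signalling. The roles are given as general background, since the annotation tables hold symbols and loci but few descriptions. The role groups were not counted among all single-gene probe sets, so their sizes describe the members only.

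The arrays were not equally far apart. Across probe sets, TOC1-ox replicates 1 and 2 correlated at r = 0.996 with each other, and replicate 3 correlated at 0.977 and 0.978 with them and at 0.976, 0.978 and 0.981 with WT replicates 1 to 3. Probe sets are not independent, so these are descriptions. The bacterial transcripts spiked in to control labelling (24 probe sets) had a median of 7.01 on TOC1-ox replicate 3, against 7.59 on WT replicate 3. On the other arrays it was 3.70 and 4.37 in TOC1-ox and 2.81 and 4.84 in WT. Of the markers listed for cell types, 5 were measured under a name: 2 of 8 for root, 2 of 5 for leaf mesophyll, 1 of 4 for guard cells and 0 for phloem, seed, flower and senescing leaf. The summed root markers lay at log2 14.08 to 14.32 in TOC1-ox and 14.06 to 14.36 in WT, and the summed mesophyll markers at 14.83 to 15.44 and 14.74 to 15.18. The summed root level is carried by PYK10. The other root marker, EXPA7, lay at 6.31 to 6.78 in TOC1-ox and 5.45 to 5.95 in WT, and the guard-cell marker FMA at 6.61 to 6.98 in TOC1-ox and 5.74 to 6.44 in WT, both without overlap. Limma called 0 of the 5 markers, and EXPA7 was the 1 with an unadjusted p under 0.05 (adjusted p = 0.129). For FMA limma gave an adjusted p of 0.316. The share of all tested probe sets whose groups do not overlap was not counted, so the separation of EXPA7 and FMA has no baseline. The part that labelling, harvest or cell composition has in the pattern was not tested, and in whole seedlings fewer cells of a type and less RNA per cell cannot be told apart.

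The gene with the largest lift, meaning the lower of TOC1-ox replicates 1 and 2 minus the highest WT value, was AT5G04120, of the phosphoglycerate mutase family. Its log2 values were 11.58, 11.51 and 6.88 in TOC1-ox replicates 1 to 3, against 5.90, 5.59 and 6.93 in WT replicates 1 to 3. Replicates 1 and 2 averaged 42.4 times the WT mean, and replicate 3 lay inside the WT range. It was the only named gene placed with primary metabolism.

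Enzymes of specialised metabolism made up 6 of the 33 named genes. JMT encodes jasmonic acid carboxyl methyltransferase, which turns the wound hormone jasmonic acid into volatile methyl jasmonate. It had 6.16, 5.95 and 2.33 in TOC1-ox, against 2.28, 2.28 and 2.21 in WT. The WT arrays and TOC1-ox replicate 3 all lay at the low end of the measured range, which leaves the fold poorly defined, and only replicates 1 and 2 carried a clear signal.

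AT5G37970 encodes a methyltransferase of the same S-adenosylmethionine-dependent class as JMT, and AT5G37980, the next gene on chromosome 5, a zinc-binding dehydrogenase. AT5G37970 had 5.84, 5.29 and 2.68 in TOC1-ox and 2.78, 2.72 and 2.60 in WT. AT5G37980 had 7.65, 7.74 and 4.51 in TOC1-ox and 4.04, 4.23 and 4.19 in WT. Both were thus high on the same 2 arrays, and in TOC1-ox replicate 3 AT5G37970 lay within the WT range and AT5G37980 0.28 above it.

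AT3G32030, of the terpene synthase family, had 6.74, 6.94 and 4.34 in TOC1-ox and 4.35, 3.05 and 4.16 in WT. Its probe set is of the kind whose probes can match several related transcripts (name ending in _s_at), so its signal may be shared. AT4G20820, of the berberine bridge enzyme family of flavin oxidases, had 8.55, 8.22 and 4.98 in TOC1-ox and 5.27, 4.89 and 4.62 in WT. AT1G64590, of the short-chain dehydrogenase type, had 9.62, 9.71 and 5.14 in TOC1-ox and 5.96, 6.27 and 6.49 in WT. In AT1G64590 the 3 TOC1-ox arrays lay on both sides of WT, since replicate 3 was below every WT value.

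Copper and redox proteins accounted for 4 genes. CCS encodes the copper chaperone that loads copper into Cu/Zn superoxide dismutase. Its values were 9.17, 9.22 and 6.73 in TOC1-ox and 6.69, 6.71 and 6.33 in WT, so that replicates 1 and 2 averaged 6.15 times the WT mean while replicate 3 lay 0.02 above the highest WT value. The difference of replicates 1 and 2 from each other was 0.04. Unlike the other 3 of this group, CCS had a WT mean well above the bottom of the scale.

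AT5G19890 and AT1G49570 encode class III peroxidases, secreted enzymes that act on the cell wall and on hydrogen peroxide. AT5G19890 had 5.99, 5.47 and 2.29 in TOC1-ox and 1.89, 1.91 and 1.88 in WT. AT1G49570 had 6.05, 6.24 and 2.54 in TOC1-ox and 2.61, 2.54 and 2.33 in WT. AT5G11930, of the glutaredoxin family of thiol-disulfide oxidoreductases, had 4.50, 4.83 and 2.40 in TOC1-ox and 2.12, 2.02 and 2.01 in WT. All 3 had WT levels at the bottom of the scale.

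Proteases, a nuclease and a wall enzyme gave 4 genes. AT3G49340 and AT1G29090 encode papain-type cysteine proteases. AT3G49340 had 5.94, 5.11 and 2.63 in TOC1-ox and 2.68, 2.61 and 2.58 in WT. AT1G29090 had 7.82, 7.93 and 4.39 in TOC1-ox and 5.70, 4.67 and 5.47 in WT, with replicate 3 under all 3 WT arrays. AT1G14220, of the T2 ribonuclease family, had 8.35, 7.98 and 5.41 in TOC1-ox and 4.94, 4.17 and 4.80 in WT. Its replicate 3 lay 0.48 above the highest WT value, just inside the limit. AT3G18170, of glycosyltransferase family GT61, whose members build side chains of wall polysaccharides, had 8.22, 8.36 and 6.49 in TOC1-ox and 6.11, 6.03 and 6.13 in WT.

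Transporters were also 4. OCT1, an organic cation and carnitine transporter, had 7.34, 6.81 and 2.49 in TOC1-ox and 4.59, 4.76 and 3.53 in WT. Its replicate 3 was 1.80 below the WT mean, the lowest position of replicate 3 among the 65 members on that measure. AT3G56200, of an amino acid transporter family, was bright on all arrays, with 11.19, 11.08 and 9.00 in TOC1-ox and 8.65, 8.05 and 8.71 in WT.

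AT1G68600, of the aluminium-activated malate transporter family, had 8.90, 9.11 and 7.15 in TOC1-ox and 5.46, 5.34 and 6.82 in WT. WT replicate 3 stood apart from the other 2 WT arrays here and lay 0.33 under TOC1-ox replicate 3. AT3G23870, of a family of magnesium transporters, had 4.96, 4.94 and 2.65 in TOC1-ox and 2.66, 2.90 and 2.66 in WT, where the signal is near the bottom of the scale.

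Signalling and defence genes were 6. FHL encodes a relative of FHY1 that carries the far-red photoreceptor phytochrome A into the nucleus. It had 8.90, 9.11 and 4.91 in TOC1-ox and 5.73, 5.62 and 6.72 in WT. The overexpressor arrays were thus on both sides of WT, with replicates 1 and 2 at 7.92 times the WT mean and replicate 3 at 1.11 log2 units under it.

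AT3G27150 encodes a kelch-repeat F-box protein whose transcript is a known target of the microRNA miR2111. It had 7.45, 6.98 and 3.53 in TOC1-ox and 2.53, 2.68 and 3.31 in WT. AT1G35710, a leucine-rich-repeat receptor-like kinase, had 7.24, 7.07 and 2.98 in TOC1-ox and 2.96, 2.15 and 4.07 in WT. AT5G03350, a legume-type lectin known to respond to salicylic acid, had 9.75, 9.63 and 7.24 in TOC1-ox and 6.21, 4.95 and 7.36 in WT. These 3 genes had their highest WT value on WT replicate 3, and the WT arrays of AT5G03350 spread most among the named members, with an SD of 1.21.

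AT4G17670, an FCS-like zinc finger protein, had 8.63, 8.85 and 6.97 in TOC1-ox and 5.82, 5.46 and 6.57 in WT. AT4G00670, of the remorin family of plasma-membrane proteins, had 8.48, 8.19 and 6.0 in TOC1-ox and 6.13, 5.71 and 5.56 in WT. Replicate 3 lay above all WT values in AT4G17670 and within them in AT4G00670.

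No role is given here for the remaining 8 named genes, AT5G17340, AT3G61410, AT1G76960, AT5G47740, AT1G67920, AT1G27030, AT3G05390 and AT3G50350. AT5G17340 had the largest lift of them, 3.51, with 5.82, 5.91 and 2.32 in TOC1-ox and 2.31, 2.03 and 2.25 in WT. AT1G27030 was the brightest in WT of all 33 named genes, with 11.08, 10.98 and 9.43 in TOC1-ox and 8.95, 8.86 and 8.91 in WT. The lifts of the 8 ran from 2.01 to 3.51.

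**Figure D1:**
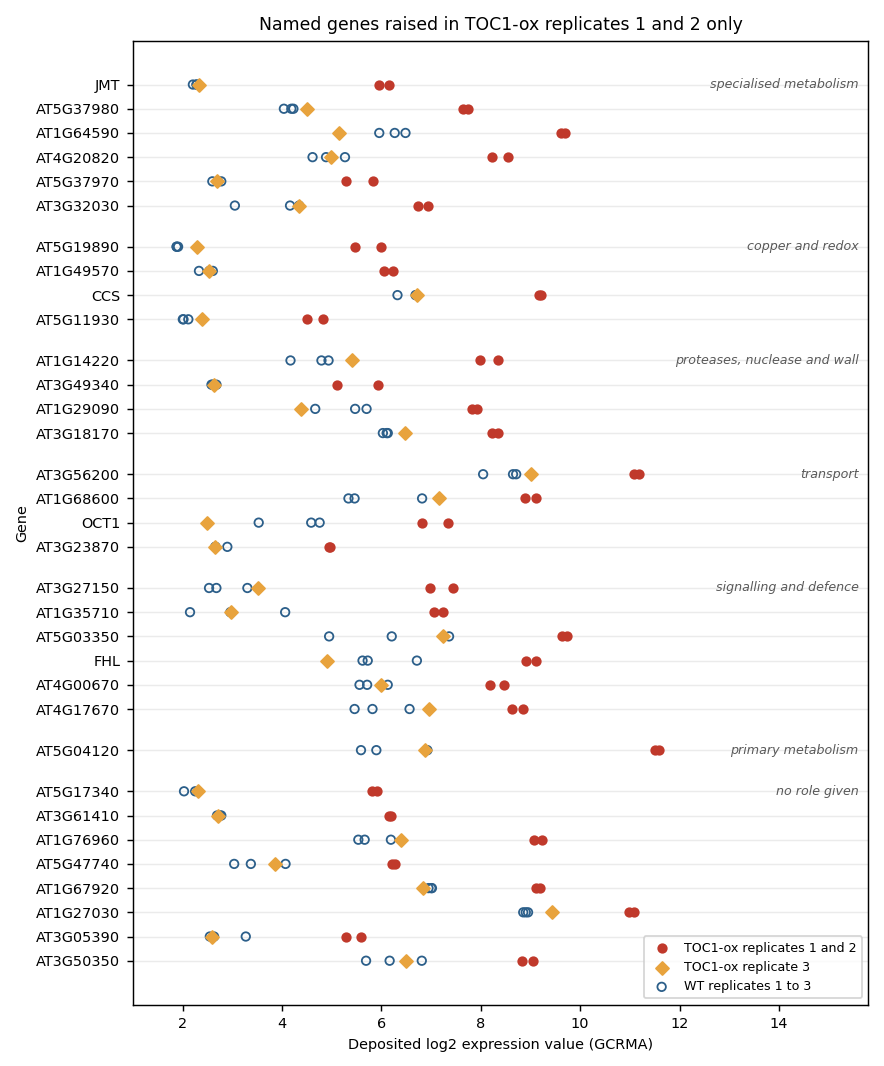
Deposited log2 value (x axis) of each of the 33 named genes (y axis, grouped by role) on each array: filled circles are TOC1-ox replicates 1 and 2, diamonds TOC1-ox replicate 3 and open circles the 3 WT arrays. The diamonds lie among or beside the open circles, and for FHL, OCT1, AT1G64590 and AT1G29090 clearly to their left.

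The 32 probe sets without a listed gene behaved over a like range, with lifts of 2.03 to 4.50 and a median of 2.41, beside 2.01 to 4.58 and a median of 2.40 for the named 33. The largest lift among them belonged to a probe set with 7.17, 7.72 and 2.70 in TOC1-ox and 2.35, 2.61 and 2.67 in WT. Another had an uneven WT group, with 8.56, 8.61 and 2.68 in TOC1-ox and 1.84, 2.07 and 6.49 in WT. Its WT SD of 2.62 was the highest of the 65, and WT replicate 3 was closer there to TOC1-ox replicates 1 and 2 than to its own group. It was singled out after its values were seen.

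Over all 65 members, replicates 1 and 2 averaged 4.37 to 42.4 times the WT mean, with a median of 7.92. They lay under 0.5 log2 units apart in 55 members and over 1 apart in 2. TOC1-ox replicate 3 was between 1.80 below and 1.36 above the WT mean, with a median of 0.21 above it. It lay below all WT values in 6 members, within them in 27 and above them in 32. Of all tested probe sets, replicate 3 was below every WT value in 23.5% and above every one in 21.8%. All 6 members with replicate 3 below WT were named genes: AT1G64590, FHL, AT1G29090, OCT1, AT1G67920 and AT3G23870, the last by 0.01. Since the rule caps replicate 3 from above only, these positions describe the selection.

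The arrays numbered 3, which share the high spike-in signal, allow a comparison of 1 TOC1-ox array with 1 WT array. There the members differed by a median of 0.19 (TOC1-ox replicate 3 minus WT replicate 3, range -3.81 to 1.55), and 16 of 65 were lower in TOC1-ox. WT replicate 3 was the highest WT array in 25 members (38.5%), beside 26.3% of all tested probe sets. With 1 array a group no test exists for these values. The rule caps TOC1-ox replicate 3 at 0.5 above the highest WT value, so small differences here are partly built into the selection. The share of all tested probe sets lower in TOC1-ox replicate 3 than in WT replicate 3 was not counted. No conclusion on the spike-in signal is drawn from this comparison.

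The WT mean was under 4, near the bottom of the scale, in 31 of 65 members (47.7%), beside 36.7% of all tested probe sets. In the other 34 the transcript had a WT level above this, up to 10.18 at an unnamed probe set, so the pattern was not limited to transcripts at the bottom of the scale in WT.

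**Figure D2:**
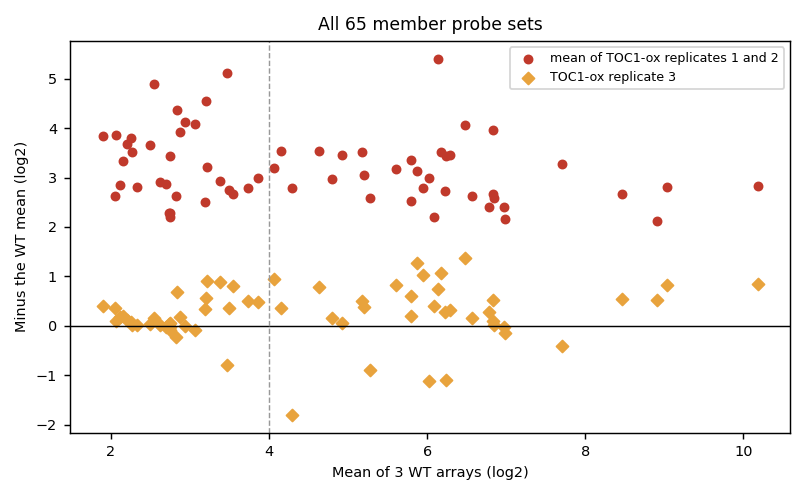
Each of the 65 members at its WT mean (x axis, log2), with the mean of TOC1-ox replicates 1 and 2 (circles) and TOC1-ox replicate 3 (diamonds) minus that WT mean (y axis, log2). The dashed line marks a WT mean of 4; circles lie at 2.13 to 5.41 and diamonds at -1.80 to 1.36 across the range of WT levels.

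The limit on replicate 3 cuts through a continuous range. In all, 245 of 22746 probe sets (1.08%) had TOC1-ox replicates 1 and 2 at least 2 above the highest WT value. Replicate 3 was at or below the highest WT value in 33 of them, 0 to 0.5 above it in 33, 0.5 to 1 above in 36, 1 to 2 above in 71 and at least 2 above in 72. The 245 include the left-out families, so the first 2 counts sum to 1 more than the 65 members. The 72 probe sets raised in all 3 TOC1-ox arrays had a median WT mean of 3.64, beside 4.15 for the members and 6.19 for all tested probe sets. Of the 111 probe sets with replicates 1 and 2 at least 2 below the lowest WT value, 28 had replicate 3 at most 0.5 below it. The 111 include the left-out families and the 28 do not.

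Named genes just inside and just outside the limits were close in value. AT3G50350 and AT3G05390 entered with lifts of 2.01 and 2.02, and AT5G01790 stayed out with 1.98. AT1G27030 entered with replicate 3 at 0.478 above the highest WT value, and AT5G19110 stayed out at 0.515 although its lift was 3.49.

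**Figure D3:**
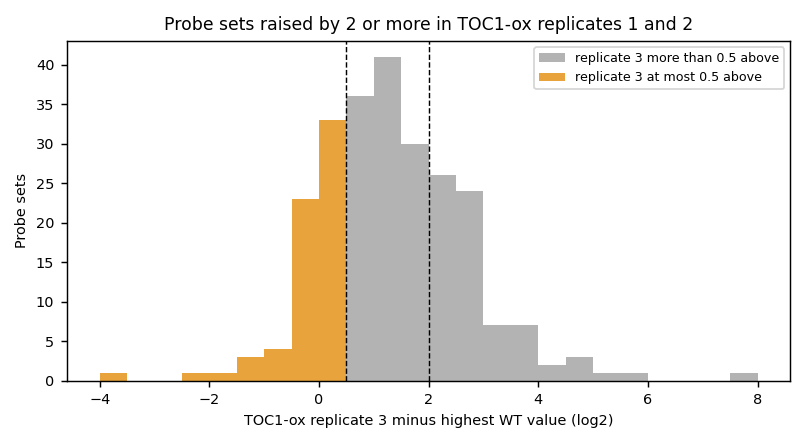
Histogram of TOC1-ox replicate 3 minus the highest WT value (x axis, log2) for the 245 probe sets with TOC1-ox replicates 1 and 2 at least 2 above it (y axis, number of probe sets in bins of 0.5). Dashed lines mark 0.5 and 2; counts run without a gap across the first line, with 33 probe sets in the bin below it and 36 in the bin above.

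The same fit as for the whole table (limma, TOC1-ox minus WT, adjusted over all probe sets) called 0 of the 65 members with all 6 arrays, beside 1.78% of all tested probe sets called in either direction and 1.08% called higher. Limma gave 28 members (43.1%) an unadjusted p under 0.05, beside 16.4% of all tested probe sets. The members' differences ran from 1.25 to 3.85 with a median of 2.16, beside -0.02 for all tested probe sets, and their standard errors from 0.48 to 2.22. Without TOC1-ox replicate 3, limma called 63 of the 65, beside 7.05% of all probe sets called higher, and the median difference was 2.99. The exceptions were AT5G03350 and the unnamed probe set with the uneven WT group, which had the widest WT spread of the named and of all members (limma, adjusted p = 0.0596 and 0.14). The rule used this contrast and these arrays, so both counts restate the selection.

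The position of the genes on the chromosomes was not part of the rule. Of the 33 named genes, 12 lie on chromosome 1, 0 on chromosome 2, 9 on chromosome 3, 3 on chromosome 4 and 9 on chromosome 5. The single-gene probe sets of the array divide as 25.5%, 16.3%, 20.3%, 14.5% and 22.3% over these chromosomes. The median gene length was 1891 bases among the 33 and 2117 among all annotated single-gene probe sets (TAIR10.1).

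Only AT5G37970 and AT5G37980 were direct neighbours among the named members. The next gene on the other side of AT5G37980 is AT5G37990, also a methyltransferase of the S-adenosylmethionine-dependent class. It had 11.67, 11.23 and 8.18 in TOC1-ox and 9.31, 9.79 and 10.82 in WT, and did not pass with all arrays or without TOC1-ox replicate 3 (limma, adjusted p = 0.941 and 0.161). Its replicates 1 and 2 were above all WT values by at least 0.41, and its replicate 3 was 2.65 below the highest WT value. AT5G37960, on the far side of AT5G37970, lay at the bottom of the scale on all 6 arrays, at 2.67 to 2.68 in TOC1-ox and 2.60 to 2.84 in WT.

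AT3G32040, of the polyprenyl diphosphate synthase family that supplies precursors to terpene synthases, is the gene after AT3G32030. It had 4.63, 4.86 and 2.90 in TOC1-ox and 2.91, 2.90 and 2.75 in WT, with a lift of 1.72 that kept it outside the rule. It did not pass with all arrays (limma, adjusted p = 0.356) and passed without TOC1-ox replicate 3 (limma, adjusted p = 0.00398). AT3G05400, a sugar transporter-like gene beside AT3G05390, had 11.38, 11.56 and 9.22 in TOC1-ox and 7.08, 6.90 and 7.45 in WT. Here all 3 TOC1-ox values were above WT, replicate 3 by 1.77, and the adjusted p by limma was 0.0848 with all arrays and 0.00325 without TOC1-ox replicate 3.

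Most neighbours did not share the pattern. Of 32 probe sets (31 genes) directly beside a named member and not members themselves, 1 had a lift of 2 or more and 10 had a lift above 0, beside 1.08% and 18.3% of all tested probe sets. Limma called 0 of the 32 with all arrays, beside 1.78% of all tested probe sets in either direction. At an unadjusted p under 0.05 there were 5, beside 16.4% of all tested probe sets. Without TOC1-ox replicate 3 limma called 5, beside 13.0% of all tested probe sets in either direction and 7.05% higher. Of these 5, AT3G49350, AT3G32040, AT5G47730 and AT3G05400 were higher in TOC1-ox and AT3G23880 was lower. AT3G49350 had 8.80, 9.12 and 7.82 in TOC1-ox and 7.75, 7.77 and 7.79 in WT. The median difference of the 32 in TOC1-ox replicates 1 and 2 was -0.01. The peroxidase gene AT5G19880 beside AT5G19890, the protease gene AT1G29080 beside AT1G29090 and the glycosyltransferase gene AT3G18180 beside AT3G18170 all lay between 1.99 and 2.58 on every array, at the bottom of the scale. The neighbours were examined with the members' values known.

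**Figure D4:**
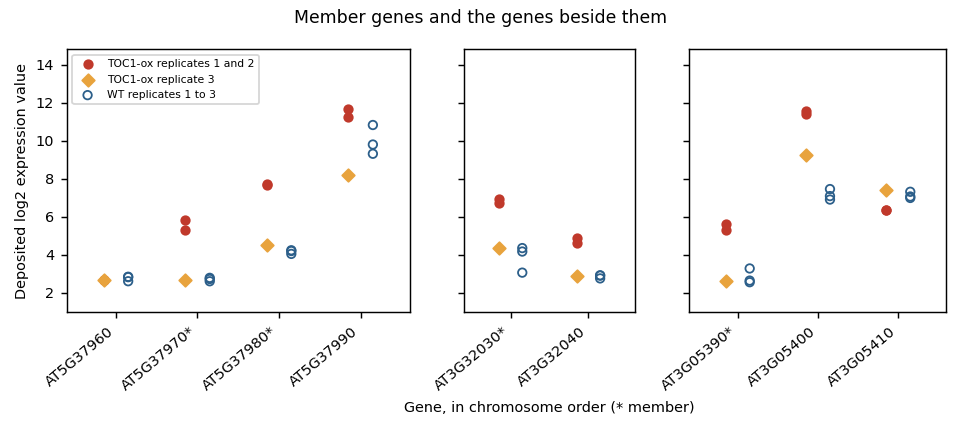
Deposited log2 values (y axis) of member genes (marked *) and the genes beside them in chromosome order (x axis) at 3 places: filled circles are TOC1-ox replicates 1 and 2, diamonds TOC1-ox replicate 3, open circles the 3 WT arrays. TOC1-ox replicates 1 and 2 are above WT in AT5G37970, AT5G37980, AT5G37990, AT3G32030, AT3G32040, AT3G05390 and AT3G05400, and not in AT5G37960 or AT3G05410.

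Wider gene families, listed by symbol prefix, held none of the 33 named members, most of which carry a locus number as their symbol. Of 29 lists, 22 had at least 1 measured gene, and of their 155 measured genes 8 rose and 3 fell by limma's test with all arrays, beside 1.08% of all tested probe sets called higher and 1.78% called in either direction. The list of flavonoid genes, kept as a reference, gave 2 of the 8, DFR and AT5MAT. Its prefix placed PAP20 both there and in the phosphate starvation list. The lists were chosen with earlier results of these data known, so these counts are descriptions. Among genes with such a symbol, no glutathione transferase (14 measured, median difference 0.38), CYP-prefixed gene (26, median -0.01) or WRKY factor (6, median 0.25) passed limma's test. At an unadjusted p under 0.05 there were 4, 3 and 3 of them, beside 16.4% of all tested probe sets. Limma with all arrays called 0 of the 65 members as well, so it cannot tell whether these genes share the members' pattern. In these 3 lists 0 genes had a lift of 2 or more. The largest lift was 1.62 for the glutathione transferases (ATGSTF13), 1.45 for the CYP-prefixed genes (CYP718) and 1.77 for the WRKY factors (WRKY53). Replicate 3 minus the highest WT value was -0.20, -0.62 and 0.91 in these genes. The CYP list was meant for cytochromes P450, but the prefix alone placed CYP71 and CYP59 there, and their products were not checked. Family members under a locus number, or on the 8730 probe sets with no listed gene, were not covered. Of 3 peroxidases listed by symbol, 1 rose: Prx37, with 8.90, 9.01 and 8.71 in TOC1-ox and 6.96, 6.31 and 7.04 in WT (limma, adjusted p = 0.0308). Its replicate 3 was 1.67 above the highest WT value, beside 0.38 above it for the member peroxidase gene AT5G19890 and 0.07 below it for AT1G49570. Of 7 calmodulin-like genes 1 rose, CML38, which encodes a calcium sensor, with 7.30, 7.61 and 6.23 in TOC1-ox and 3.86, 3.49 and 3.50 in WT (limma, adjusted p = 0.0336).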

How the data were processed

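The deposited table holds log2 expression values for Affymetrix probe sets on 6 arrays, made by the authors from biotin-labelled cRNA of 1 µg total RNA, per the labels' protocols. GCRMA and limma are named in the submitters' processing notes, without versions. GCRMA compresses dim values, so differences of transcripts near the bottom of the scale are not well defined. All columns were used, and 64 control probe sets were left out. Arrays have no sequencing depth, so precision rests on the number of arrays.

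Gene names come from the platform annotation, with symbols updated by gene identifier from a TAIR10.1 table (13436 of 13513 single-gene probe sets matched). Coordinates are left out because the array's build is unknown, and no promoter or protein sequences were used here. Grouping by product words, as planned, was not possible without product names, and the role groups were drawn up once the genes were known. The members and lists were chosen with earlier results of these data known. Genes were to be named by lift, by list, by closeness to the limits, by replicate 3 position and by WT level; the other members with a single gene were named as well.

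The whole table was analysed in R 4.3.3 by limma 3.58.1 (lmFit, eBayes, group as the only term, two-sided), with Benjamini-Hochberg adjustment over 22746 probe sets and a threshold of 0.05. On data simulated for this comparison over 22746 probe sets 24, 42, 45 and 47 of 50 altered probe sets were recovered at shifts of log2 1, 2, 3 and 4, with 8 false calls. These rates hold for the simulated data and do not carry over to the members. With all arrays, limma called 0 of the 65 members at differences of 1.25 to 3.85. Alternatives were other scalings, limits, filters, variance models, weights, blocks and left-out arrays. P-values measure only the spread between these samples.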

Additional observations from a re-analysis of the deposited data

How the results depend on the processing

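The number of members depended on the limits and on single arrays. It was 166 and 29 with a step of 1.5 and 2.5 in place of 2, 33 and 100 with a ceiling of 0 and 1 in place of 0.5, and 33 when genes rather than probe sets were counted. With single arrays left out it ran from 66 to 241: 99 without TOC1-ox replicate 2 and 241 without TOC1-ox replicate 3, where the ceiling has nothing to act on. Quantile normalization gave 62 members (59 of them shared with the 65), centring 59 (58 shared), a minimum mean of 4 gave 48, and the WT mean as the reference gave 68, of which only 44 were shared. Without WT replicate 3 it was 67, with 51 shared.

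Limma called 0 members in the main setting, with the other scalings, the filter (48 members tested), the variance trend, the robust prior and the arrays numbered 3 as a batch. With single arrays left out the calls ran from 0 to 63, the 63 coming without TOC1-ox replicate 3. Array weights gave 64 and the arrays numbered 1 and 2 only gave 51, fits that called 2877 and 1170 of all probe sets higher, against 245. With the replicate block, limma called 0 members (14 at an unadjusted p under 0.05) and 0 probe sets, with 4317 at an unadjusted p under 0.05 against 3725 without it. The deviations of same-numbered arrays correlated at 0.30, -0.01 and 0.08, and the numbers were not taken as pairs in the main setting. These correlations do not settle whether same-numbered arrays were processed together, and those numbered 3 shared the high spike-in signal. With 2 or 3 neighbours on each side of a named member, chosen after seeing the data, 1 of 60 and 1 of 92 had a lift of 2 or more.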
